A study of Mus musculus with 5 samples.

Results

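The RNAs described here are the small nucleolar RNAs (snoRNAs) and Cajal-body RNAs (scaRNAs) measured in the mouse neuroblastoma line N2a after knockdown of Ewsr1, which encodes an RNA-binding protein of the FET family. They were chosen by name: all genes of GENCODE M21 (mouse build GRCm38) whose symbol starts with Snord, Snora or Scarna, except Snord118 and Snord13. This gave 148 of the 54838 genes listed, namely 97 box C/D RNAs (Snord), 42 box H/ACA RNAs (Snora) and 9 Cajal-body RNAs (Scarna). Cells received siRNA against Ewsr1 (siEwsr1, 3 libraries) or control siRNA (siCtrl, 2 libraries) in 2 pulses with a lipid reagent, starting from 50000 cells, and were harvested 24 hours after the second of these. The siRNA concentration is labelled as 100 µM. Total RNA (2 µg) was sequenced with a stranded kit that depletes ribosomal RNA and needs no poly(A) tail. All libraries come from a single cell line, and nothing in the labels says that replicates were separate cultures. The p-values therefore rest on the spread among 5 libraries, part or all of which may be technical.

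Box C/D RNAs pair with a target RNA and guide methylation of a ribose by fibrillarin, and box H/ACA RNAs guide the conversion of uridine to pseudouridine by dyskerin. Most targets are in ribosomal RNA, but a few members of each family act in cleavage of the ribosomal RNA precursor, and scaRNAs guide the same modifications in spliceosomal small nuclear RNAs within Cajal bodies. In mammals most of these RNAs lie in introns of other genes, called hosts, and are trimmed out of the excised intron, so the level of the small RNA need not follow that of the host message.

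The sequences of 6 members on which the results turn are given 5′ to 3′ in the sense of the RNA, as the GENCODE M21 transcript sequences give them (GRCm38). Capitals mark the last ACA within 8 bases of the end in box H/ACA RNAs, and TGATGA (the C box) within the first 20 bases and the last CTGA (the D box) within the last 20 bases in box C/D RNAs. Snora2b (chr15:98526346-98526482, minus strand) is shown because it passed the test as lower in siEwsr1 cells.
Snora2b: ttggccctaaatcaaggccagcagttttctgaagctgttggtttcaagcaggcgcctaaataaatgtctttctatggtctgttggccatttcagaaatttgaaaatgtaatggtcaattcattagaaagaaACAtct
Snora73b (chr4:132352322-132352526, minus strand) gave the most box H/ACA reads, and Snora73a (chr4:132352775-132352979, minus strand) is its near copy, identical at 198 of 205 aligned positions (96.6%) with a longest shared run of 56 bases.
Snora73b: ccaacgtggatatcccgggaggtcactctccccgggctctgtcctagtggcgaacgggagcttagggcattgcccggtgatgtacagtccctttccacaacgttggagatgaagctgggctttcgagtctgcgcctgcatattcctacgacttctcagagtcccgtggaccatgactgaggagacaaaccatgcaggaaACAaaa
Snora73a: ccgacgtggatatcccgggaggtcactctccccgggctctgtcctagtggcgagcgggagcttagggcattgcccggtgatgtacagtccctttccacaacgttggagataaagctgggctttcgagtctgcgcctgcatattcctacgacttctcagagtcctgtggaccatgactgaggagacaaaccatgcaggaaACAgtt
Snord104 (chr11:106500993-106501062, plus strand), Snord35a (chr7:45126346-45126435, minus strand) and Snord72 (chr15:5118404-5118484, plus strand) are box C/D RNAs whose siEwsr1 and siCtrl libraries did not overlap. Of these, only Snord104 held TGATGA in the window searched.
Snord104: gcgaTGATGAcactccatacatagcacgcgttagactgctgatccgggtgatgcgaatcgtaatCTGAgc
Snord35a: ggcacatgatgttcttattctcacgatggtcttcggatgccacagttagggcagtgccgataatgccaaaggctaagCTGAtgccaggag
Snord72: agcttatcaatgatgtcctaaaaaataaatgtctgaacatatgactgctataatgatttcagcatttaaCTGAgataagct

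Most annotated box C/D and box H/ACA sequences carried the boxes that their names call for. TGATGA was found in the first 20 bases of 70 of 97 box C/D RNAs (72.2%), 0 of 42 box H/ACA RNAs and 4 of 9 Cajal-body RNAs. CTGA was found in the last 20 bases of 95 box C/D RNAs (97.9%), 5 box H/ACA RNAs (11.9%) and 5 Cajal-body RNAs. ACA was found in the last 8 bases of 40 box H/ACA RNAs (95.2%), 6 box C/D RNAs (6.19%) and 4 Cajal-body RNAs. Only the RNA strand was searched. Box C/D RNAs had a median annotated length of 84 bases, box H/ACA RNAs of 132.5 bases and Cajal-body RNAs of 140 bases.

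Values are RPKM, that is reads scaled to the exonic length of the gene and to the library total. The siEwsr1 libraries held 15045774, 21339459 and 17475740 counted reads, and the siCtrl libraries 15766280 and 17314511. Ewsr1 itself had 35.7, 36.3 and 37.6 RPKM in siEwsr1 cells, against 71.7 and 72.3 RPKM in siCtrl cells. Its log2 fold change was −0.96 (SE 0.07, limma, adjusted p = 0.0221). The 10 neuroblastoma markers, 8 of them tested, summed to 469 to 560 RPKM in siEwsr1 libraries and 505 to 540 RPKM in siCtrl libraries. The neurofilament gene Nefl averaged 0.0122 RPKM in siEwsr1 cells and was at 0 in siCtrl cells. The 7 fibroblast markers summed to 0.286 to 0.498 RPKM in siEwsr1 libraries and 0.555 to 0.599 RPKM in siCtrl libraries, with Col3a1 and Lum at 0. The 4 blood and immune markers summed to 0.582 to 1.002 RPKM in siEwsr1 libraries and 0.659 to 0.735 RPKM in siCtrl libraries, with Cd3e and Hba-a1 at 0. In RNA from a whole culture, fewer cells of a kind and less RNA per cell cannot be told apart.

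Whether a member was counted at all went with its place in the annotation. A total of 77 members (57 box C/D, 20 box H/ACA, 0 Cajal-body) were listed at 0 in all 5 libraries. Small RNA genes were left out when overlap with exons of another gene was counted. All 55 members that lie wholly within such exons on the same strand, 37 box C/D and 18 box H/ACA, were among these 77. Of the 93 members that do not, 22 were at 0 in every library. Of these 22, 17 are copies of Snord116, an imprinted repeat family within Snhg14 whose members share runs of 73 to 94 bases here. Snord85, Snord7, Snord123, Snora35 and 1 of the genes named Snora43 make up the rest. That Snora43 gene lies within the other Snora43 gene on the same strand. Among all 148 members, 23 share a run of at least 60 bases with another member, and 1 of the 23, a Snora43 gene, was above 0. How reads that fit several genes or places were counted is not given in the sources used here, so a listed 0 does not show that the RNA was absent from the cells, and the part of overlap in these zeros was not tested.

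**Figure D1:**
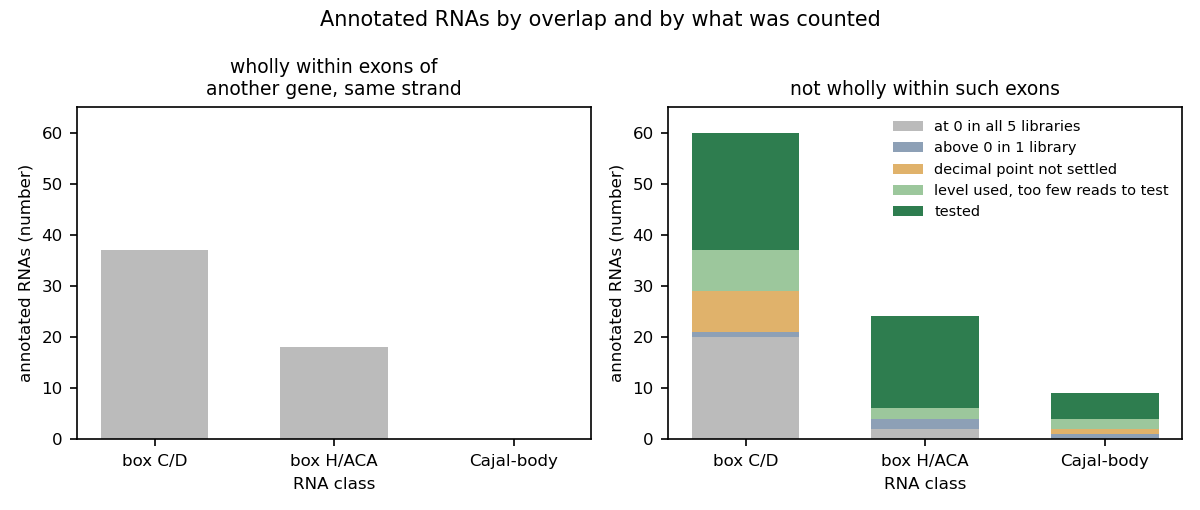
Number of annotated RNAs in each class (y axis), stacked by what was counted. Members wholly within same-strand exons of another gene, small RNA genes left out, are in the left panel and all others in the right panel. All 55 members of the left panel are at 0 in all 5 libraries, while 71 of the 93 in the right panel are above 0 in at least 1 library.

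Another 4 members were above 0 in a single library (Snora36b, Snord67, Snora15 and Scarna3b), which left 67 above 0 in at least 2 libraries: 39 box C/D, 20 box H/ACA and 8 Cajal-body RNAs. For 9 of these the decimal point lost from the deposited values could not be placed with odds of at least 20, and they were left out: Snord4a, Snord8, Snord11, Snord15a, Snord37, Snord42a, Snord83b, Snord91a and Scarna17. Levels could be used for 58 members (31, 20 and 7 by class), and 46 of these (23, 18 and 5) had at least 10 reads in 2 or more libraries and were tested. The other 12 had 0 to 15 reads per library. Of the members above 0, 10 lie partly within same-strand exons of another gene, small RNA genes left out, Snora2b, Scarna10 and Snora73a among them.

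Between siEwsr1 and siCtrl cells, 2 of the 46 tested RNAs passed the test and both were lower in siEwsr1 cells: the box H/ACA RNA Snora2b and the Cajal-body RNA Scarna10. A gene was called when its limma p-value, adjusted by Benjamini-Hochberg over all 14937 genes tested, was under 0.05. This gave 0 of 46 members higher, against 0.77% of all genes, and 2 of 46 lower (4.35%), against 0.917% of all genes. At an unadjusted p under 0.05, 4 members were higher and 5 lower, 9 of 46, against 20.2% of all genes. Which members were called depended on how limma's variance prior was set. That prior followed the mean log2 RPKM of a gene, as designed, and short RNAs reach a high RPKM with few reads. With the prior following the mean log2 reads instead, an alternative looked at after the data had been seen, Snora2b stayed called as lower, Scarna10 was not called and Snora73b was called as higher. The counts over all genes then were 367 higher and 399 lower, against 115 higher and 137 lower as designed. Snora2b was the single member called in both fits.

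Without regard to p-values, all siEwsr1 libraries stood above both siCtrl libraries in 9 of 46 members (19.6%), against 19.9% of all genes. All siEwsr1 libraries stood below both siCtrl libraries in 6 of 46 (13.0%), against 19.9% of all genes. The first share is near the background. With 3 libraries against 2, an exact permutation test cannot give a p below 0.1.

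Snora2b had 62, 74 and 51 reads in the siEwsr1 libraries and 128 and 134 reads in the siCtrl libraries, or 30.1, 25.3 and 21.3 RPKM in siEwsr1 cells and 59.3 and 56.5 RPKM in siCtrl cells. All siEwsr1 libraries were low and the groups did not overlap. The means were 25.6 ± 4.39 RPKM (SD, n = 3) in siEwsr1 cells and 57.9 ± 1.96 RPKM (SD, n = 2) in siCtrl cells, a log2 fold change of −1.17 (SE 0.15, limma, adjusted p = 0.0280). The adjusted p was 0.0132 with the prior on reads (limma). The call was lost without siCtrl replicate 1 (adjusted p = 0.287), siCtrl replicate 2 (adjusted p = 0.295) or siEwsr1 replicate 1 (adjusted p = 0.131), fits in which no gene at all was called, while the log2 fold change stayed between −1.29 and −1.03 in all alternatives.

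Snora2b lies in Kansl2, which encodes a subunit of a histone acetyltransferase complex, and 67.2% of its bases are in annotated Kansl2 exons on the same strand, where reads could belong to either gene. Kansl2 had 34.3, 34.2 and 36.6 RPKM in siEwsr1 cells, against 50.1 and 49.2 RPKM in siCtrl cells, and was called lower (log2 fold change −0.48, SE 0.08, limma, adjusted p = 0.0441). The ratio of Snora2b to Kansl2 RPKM was 0.878, 0.741 and 0.582 in siEwsr1 libraries, against 1.182 and 1.147 in siCtrl libraries. The ratio was lower in every siEwsr1 library, and this difference was not tested. Snora34, a second box H/ACA RNA within Kansl2, has none of its bases in Kansl2 exons but overlaps Mir1291 on the same strand. It had 15, 5 and 17 reads in siEwsr1 libraries and 4 and 7 reads in siCtrl libraries. These groups overlapped, and the log2 fold change of 0.93 (SE 0.64) did not pass the test (limma, adjusted p = 0.458). In RPKM, siEwsr1 replicate 2 of Snora34 (1.70) lay below both siCtrl libraries (1.84 and 2.93) and the other siEwsr1 libraries above them. Without that library the log2 fold change was 1.59 and Snora34 was called higher (limma, adjusted p = 0.0368). Snora34 reached the reads needed for testing only in siEwsr1 libraries, the group where its mean was higher. The call also appeared only with the low siEwsr1 library left out, so it is no support for a difference.

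Scarna10 corresponds to a human RNA, U85, that carries both kinds of guide domain and directs modifications of a spliceosomal small nuclear RNA. It had 33, 44 and 39 reads in siEwsr1 libraries and 52 and 58 reads in siCtrl libraries, or 6.75, 6.34 and 6.87 RPKM in siEwsr1 cells and 10.1 and 10.3 RPKM in siCtrl cells. Replicates lay close together and the groups did not overlap. The log2 fold change was −0.59 (SE 0.09, limma, adjusted p = 0.0406). With the prior on reads the SE was 0.22 and the adjusted p 0.153 (limma). At this few reads, the smaller SE of the designed fit may understate the spread to be expected between libraries. The call was also lost without siEwsr1 replicate 1 (adjusted p = 0.170), siEwsr1 replicate 2 (adjusted p = 0.0662), siCtrl replicate 1 (adjusted p = 0.342) or siCtrl replicate 2 (adjusted p = 0.367), while the log2 fold change stayed between −0.61 and −0.53 in all alternatives. Its host Ncapd2, which encodes a condensin subunit, had a log2 fold change of 0.17 (limma, adjusted p = 0.394), and 87.1% of the bases of Scarna10 are in same-strand exons of other genes.

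Snora73b (also U17 or E1) acts in cleavage of the ribosomal RNA precursor rather than as a pseudouridine guide. It had 729, 1255 and 773 RPKM in siEwsr1 cells, against 470 and 527 RPKM in siCtrl cells. The groups did not overlap, and siEwsr1 replicate 2 was far above the rest. The means were 919 ± 291 RPKM (SD, n = 3) in siEwsr1 cells and 499 ± 40.8 RPKM (SD, n = 2) in siCtrl cells, a log2 fold change of 0.86 (SE 0.24) that did not pass the test as designed (limma, adjusted p = 0.124). The adjusted p was 0.0391 with the prior on reads (limma). Without siEwsr1 replicate 2 the log2 fold change was 0.61 (limma, adjusted p = 0.0499).

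Snora73a, the near copy in the same locus, had 69, 129 and 56 reads in siEwsr1 libraries and 56 and 57 reads in siCtrl libraries. Its groups overlapped and its log2 fold change was 0.40 (limma, adjusted p = 0.435). Without siEwsr1 replicate 3 it was 0.65 and Snora73a was called higher (limma, adjusted p = 0.0486). That call appeared only with the lowest siEwsr1 library left out, so it is no support for a difference. Because these RNAs are so alike, the split of reads between them is uncertain. Both lie within the span of Rcc1, a nucleotide exchange factor for the GTPase Ran, whose log2 fold change was 0.07 (limma, adjusted p = 0.771). Snhg3, a non-coding gene that also spans both RNAs, was not among the assigned hosts. It had 49.6, 53.4 and 45.5 RPKM in siEwsr1 cells, against 41.9 and 36.2 RPKM in siCtrl cells. All its siEwsr1 libraries were higher, and the log2 fold change of 0.37 did not pass the test (limma, adjusted p = 0.156).

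**Figure D2:**
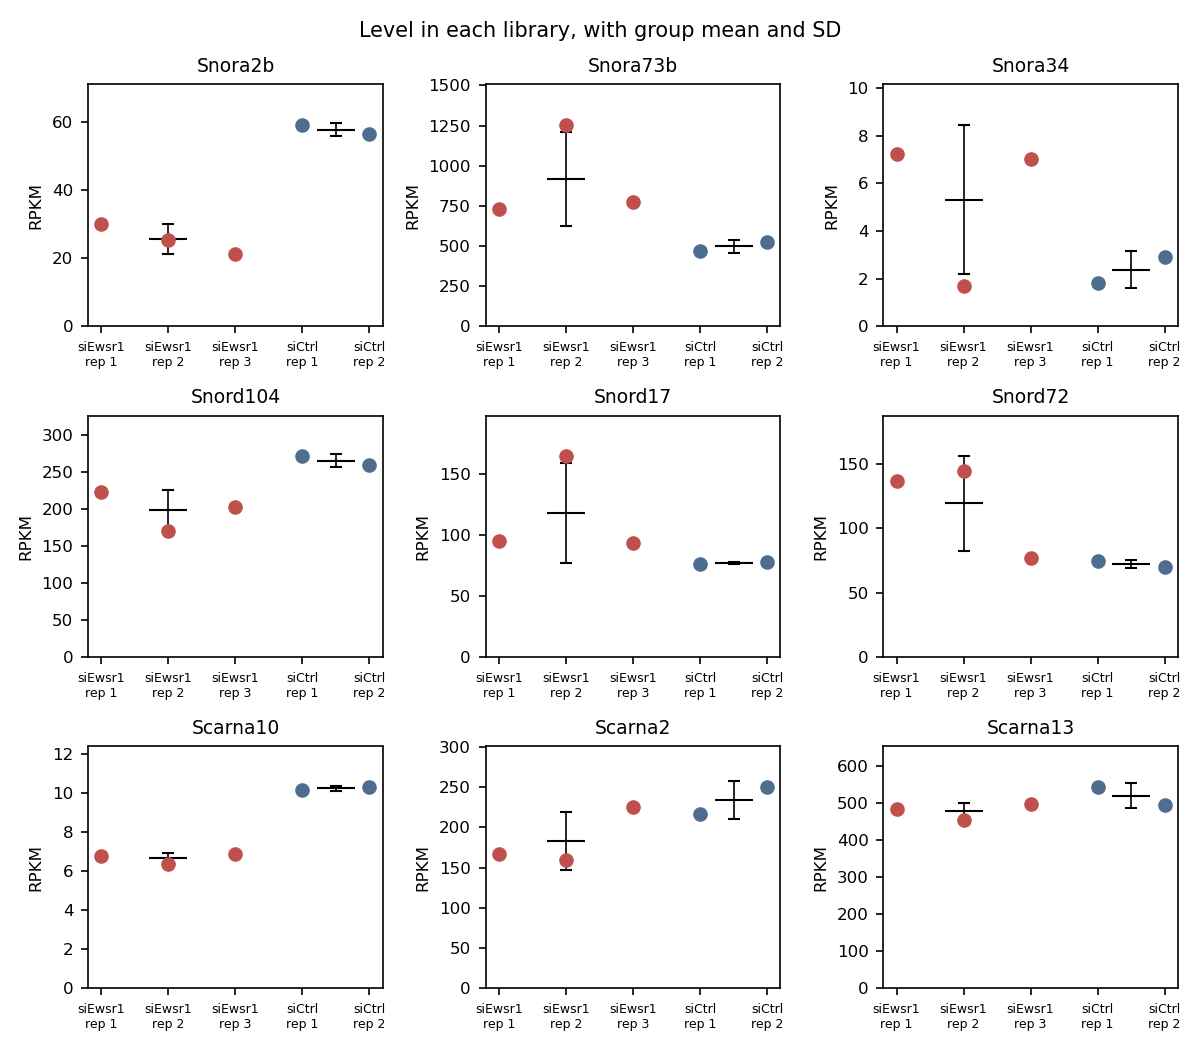
RPKM (y axes, from 0) of 9 members in each library, siEwsr1 in red and siCtrl in blue, with black bars for the group mean and SD (n = 3 and n = 2). Snora2b and Scarna10 are lower in all siEwsr1 libraries, and Snora73b and Snord17 are highest in siEwsr1 replicate 2.

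None of the 23 tested box C/D RNAs was called by limma as designed or with the prior on reads. As designed, 0.77% of all genes were called higher and 0.917% lower, so none of 23 is near the background. At an unadjusted p under 0.05 limma gave 6 of 23, against 20.2% of all genes, and 7 with the prior on reads, against 22.2%. Leaving out siEwsr1 replicate 3 called 3 of them, Snord72 as higher and Snord88c and Snord98 as lower, in a fit that called 969 genes higher and 929 lower. Snord35a, which lies in the ribosomal protein gene Rpl13a, had 15, 35 and 16 reads in siEwsr1 libraries and 9 and 6 reads in siCtrl libraries. All siEwsr1 libraries were higher, and the log2 fold change of 1.37 (SE 0.32) had the largest size of any tested member without passing the test (limma, adjusted p = 0.0998). Snord35a reached the 10 reads needed for testing only in siEwsr1 libraries, the group where it was high, so its size is no support for a difference. Snord32a in the same host had a log2 fold change of 0.52, while Rpl13a itself had −0.05.

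Snord104, the box C/D RNA with the highest siCtrl level and no assigned host, had 223, 170 and 203 RPKM in siEwsr1 cells, against 272 and 259 RPKM in siCtrl cells. Every siEwsr1 library was lower, at a log2 fold change of −0.40 (SE 0.13, limma, adjusted p = 0.150). Snord72 in Rpl37 had 137, 144 and 77.0 RPKM in siEwsr1 cells, against 74.4 and 69.9 RPKM in siCtrl cells. The groups did not overlap, but siEwsr1 replicate 3 lay close to siCtrl, and the log2 fold change was 0.69 (SE 0.29, limma, adjusted p = 0.249). Without siEwsr1 replicate 3 it was 0.99 (limma, adjusted p = 0.00919). That fit left out the siEwsr1 library nearest to siCtrl, so it is no support for a difference. Snord43 lies in Rpl3 and is typed as a microRNA in the annotation. It had 141, 145 and 151 RPKM in siEwsr1 cells, against 126.9 and 111.8 RPKM in siCtrl cells. The siEwsr1 libraries were all higher, at a log2 fold change of 0.31 (SE 0.09, limma, adjusted p = 0.140).

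Snord17 had 95.5, 165 and 93.8 RPKM in siEwsr1 cells, against 76.2 and 77.7 RPKM in siCtrl cells. The siEwsr1 libraries were all higher, with replicate 2 well above the others, and the log2 fold change of 0.59 (SE 0.26) did not pass the test (limma, adjusted p = 0.271). Its host Snx5, a sorting nexin of the endosomal retromer pathway, had 57.0, 56.9 and 50.4 RPKM in siEwsr1 cells, against 37.5 and 36.7 RPKM in siCtrl cells. Snx5 was called higher at a log2 fold change of 0.58 (SE 0.10, limma, adjusted p = 0.0441). The ratio of Snord17 to Snx5 RPKM was 1.68, 2.90 and 1.86 in siEwsr1 libraries, against 2.03 and 2.12 in siCtrl libraries, so the ratios overlapped.

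Snord88c, Snord98 and Snord55 had lower values in siEwsr1 cells on few reads. Snord88c had 7, 10 and 26 reads in siEwsr1 libraries and 22 and 34 reads in siCtrl libraries, with overlapping groups and a log2 fold change of −1.23 (limma, adjusted p = 0.252). Without siEwsr1 replicate 3 it was −1.77 (limma, adjusted p = 0.0117). That fit left out the siEwsr1 library within the siCtrl range, so it is no support for a difference in Snord88c. Snord98 had 10, 11 and 8 reads in siEwsr1 libraries and 14 and 18 in siCtrl libraries, at −0.80 (limma, adjusted p = 0.0756), or −0.68 without siEwsr1 replicate 3 (limma, adjusted p = 0.0398). With the prior on reads the adjusted p of Snord98 was 0.239 (limma). Snord55 had 17, 15 and 23 reads in siEwsr1 libraries and 22 and 38 in siCtrl libraries, at −0.76 (limma, adjusted p = 0.234). For Snord98 and Snord55 the RPKM of every siEwsr1 library was below both siCtrl libraries. The 15 box C/D RNAs not named by the rule had log2 fold changes from −0.29 to 0.52 and adjusted p from 0.148 to 0.978 in limma.

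Among box H/ACA RNAs, 15 of 18 had a log2 fold change above 0 (83.3%), against 49.4% of all genes tested. Snora34 and Snora5c are among the 15 and reached the reads needed for testing only in siEwsr1 libraries. The filter thus favoured their sign, and they are no support for a higher class level. Snora74a had 133.9, 198.0 and 110.9 RPKM in siEwsr1 cells, against 110 and 105 RPKM in siCtrl cells. Snora78 in Snhg9 had 153, 237 and 152 RPKM in siEwsr1 cells, against 112.5 and 150.3 RPKM in siCtrl cells. In both RNAs siEwsr1 replicate 2 was the high library, and their log2 fold changes of 0.44 and 0.47 did not pass the test (limma, adjusted p = 0.355 and 0.307). Snora69 in Rpl39 had 20.3, 27.5 and 16.2 RPKM in siEwsr1 cells, against 19.37 and 11.02 RPKM in siCtrl cells, with overlapping groups. Snora17 had 46.3, 37.3 and 58.5 RPKM in siEwsr1 cells, against 40.8 and 52.9 RPKM in siCtrl cells, with overlapping groups and a log2 fold change of 0.02. The 10 box H/ACA RNAs not named by the rule overlapped between groups without exception, at log2 fold changes from −0.44 to 0.41.

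Of the Cajal-body RNAs, Scarna13, which lies in Snhg10 and guides pseudouridylation of small nuclear RNAs in human cells, gave the most reads. It had 484, 453 and 496 RPKM in siEwsr1 cells, against 543 and 495 RPKM in siCtrl cells. The groups overlapped at a log2 fold change of −0.10 (SE 0.09, limma, adjusted p = 0.597). Scarna2, a methylation guide with no assigned host, had 167, 159 and 225 RPKM in siEwsr1 cells, against 217 and 251 RPKM in siCtrl cells. Replicate 3 of siEwsr1 lay within the siCtrl range, and the log2 fold change was −0.34 (SE 0.15, limma, adjusted p = 0.274). Without that library it was −0.48 and Scarna2 was called lower (limma, adjusted p = 0.0261). The call appeared only with the highest siEwsr1 library left out, so it is no support for a difference. Scarna6 had 124, 134 and 97.4 RPKM in siEwsr1 cells, against 103 and 81.7 RPKM in siCtrl cells. Scarna9 had 85.5, 129 and 104 RPKM in siEwsr1 cells, against 104 and 71.0 RPKM in siCtrl cells. Both had overlapping groups, with log2 fold changes of 0.38 and 0.31.

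By class, the median log2 fold change was 0.04 for box C/D RNAs, 0.25 for box H/ACA RNAs and −0.10 for Cajal-body RNAs, against −0.01 for all genes tested. Snord35a, Snora34 and Snora5c, which reached the reads needed for testing only in siEwsr1 libraries, are included in these medians. These medians varied with the library, and that of box C/D RNAs was −0.04 without siEwsr1 replicate 2 and −0.05 without siCtrl replicate 2. Against the siCtrl mean, the box C/D median was 0.04, 0.38 and −0.13 in siEwsr1 replicates 1, 2 and 3, and the box H/ACA median was 0.11, 0.50 and 0.10. The Cajal-body median was −0.07, −0.16 and −0.05. The box C/D and box H/ACA medians were thus highest in siEwsr1 replicate 2, and the Cajal-body median was lowest there.

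**Figure D3:**
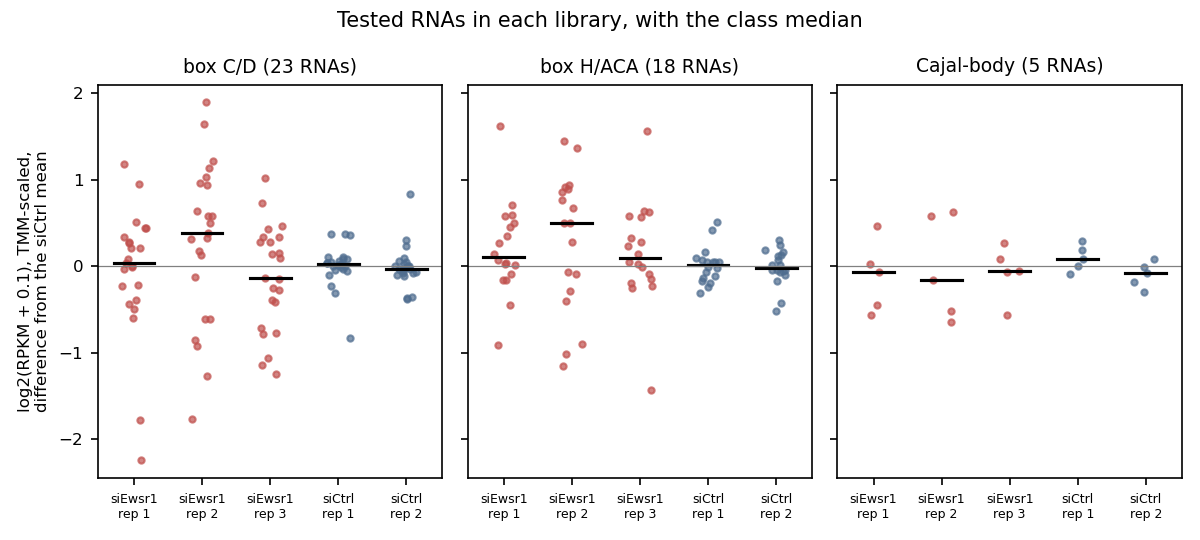
Difference of each tested RNA from its siCtrl mean, in log2(RPKM + 0.1) after trimmed-mean scaling (y axis), in each library (x axis), with points for RNAs and black bars for class medians. The medians of box C/D (0.38) and box H/ACA RNAs (0.50) are highest in siEwsr1 replicate 2.

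Summed over usable members, reads scaled to the library total (CPM) of box H/ACA RNAs were 242, 390 and 247 in siEwsr1 libraries, against 181 and 196 in siCtrl libraries. The siEwsr1 sums were all higher, at 1.55 times the siCtrl mean, or 1.30 times without siEwsr1 replicate 2. Without Snora73b the sums were 93.0, 132 and 88.3 CPM in siEwsr1 libraries, against 85.0 and 88.2 CPM in siCtrl libraries, a ratio of 1.21. That ratio was 1.05 without siEwsr1 replicate 2. Box C/D RNAs summed to 98.8, 121 and 95.2 CPM in siEwsr1 libraries, against 91.2 and 90.1 CPM in siCtrl libraries, a ratio of 1.16, or 1.07 without siEwsr1 replicate 2. Cajal-body RNAs summed to 244, 238 and 265 CPM in siEwsr1 libraries, against 278 and 271 CPM in siCtrl libraries, a ratio of 0.907. The Cajal-body sums were lower in all siEwsr1 libraries. Scarna13, whose groups overlapped, made up 50.3% to 54.7% of these sums. Scarna6 and Scarna9 had positive log2 fold changes (0.38 and 0.31), so the sums do not show a fall across the class.

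**Figure D4:**
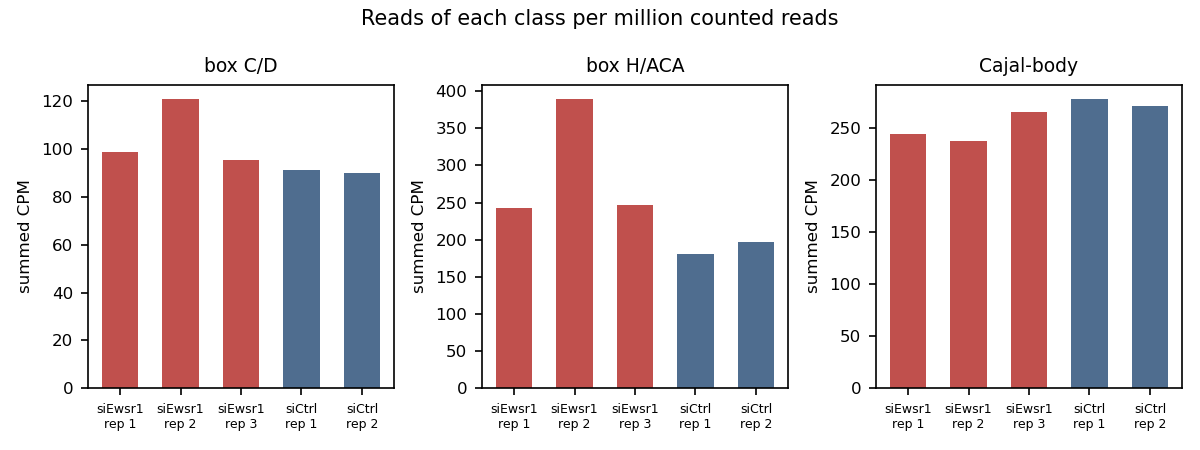
Summed reads of each class scaled to the library total (CPM, y axes from 0) in each library, siEwsr1 in red and siCtrl in blue. The box H/ACA bar of siEwsr1 replicate 2 reaches 390 CPM, against 181 and 196 CPM in siCtrl libraries, and the Cajal-body bars range from 238 to 278 CPM.

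Replicate 2 of siEwsr1 was the highest of the 5 libraries for 23 of 46 tested members, against 24.1% of all genes tested. It stood more than 2-fold above the mean of siEwsr1 replicates 1 and 3 in 6 members (13.0%), against 2.28% of all genes. It stood more than 2-fold below that mean in Snora34, Snora20 and Snord89 (log2 differences of −1.99, −1.08 and −1.08). The share of all genes that far below was not counted. Some members in these comparisons had few reads, such as Snord82 with 1, 23 and 5 in siEwsr1 libraries. The median log2 difference of siEwsr1 replicate 2 from replicates 1 and 3 was 0.37 for box C/D RNAs, 0.46 for box H/ACA RNAs and −0.08 for Cajal-body RNAs. Mitochondrial ribosomal RNA took 1.66%, 2.42% and 1.67% of counted reads in siEwsr1 libraries, against 1.55% and 0.799% in siCtrl libraries. The 95% Wilson interval was 2.41% to 2.43% for siEwsr1 replicate 2 and covers counting error only. This library was thus high in mitochondrial ribosomal RNA as well, and the part of that in the results was not tested.

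The assigned hosts numbered 45, and all were tested. Snx5 was the single host called higher and Kansl2 the single host called lower, 1 of 45 each way against 0.77% and 0.917% of all genes, and the hosts' median log2 fold change was 0.04. In 41 pairs of a tested member and its assigned host, 20 had the same sign. Snora73a and Snora73b were paired with Rcc1, not with Snhg3, which also spans them. Pearson's r was 0.02 and Spearman's rho 0.04 across these pairs, which share libraries and in part hosts, so these are descriptions. The SD of the log2 fold changes was 0.53 for members and 0.25 for hosts, and members have far fewer reads.

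**Figure D5:**
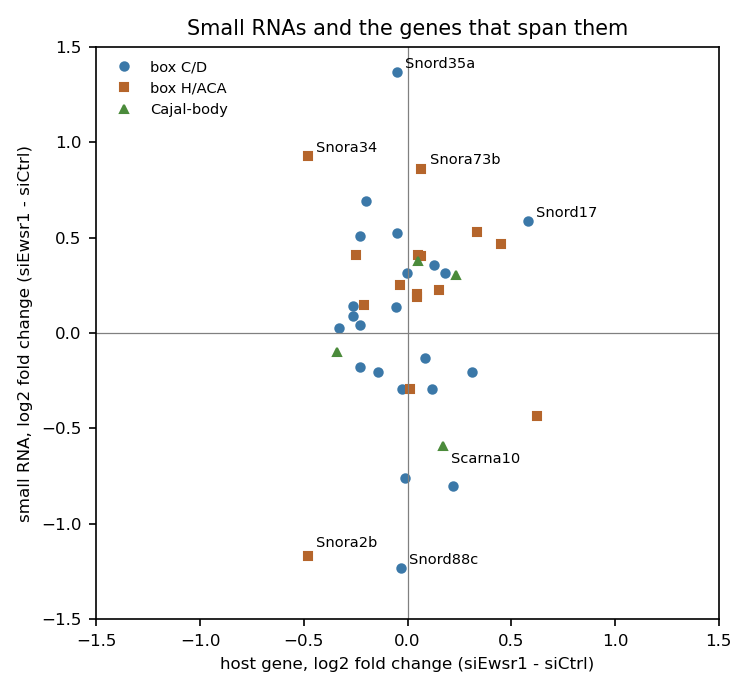
Log2 fold change, siEwsr1 minus siCtrl, of 41 tested members (y axis) against that of the host gene (x axis), by class. Hosts spread less (SD 0.25) than members (SD 0.53), and Snora2b and Snora34 share the host Kansl2 at −0.48.

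The proteins that bind, assemble and trim these RNAs were looked at in 6 lists with 47 tested genes. Limma called 0 of the 47, also with the prior on reads, and 8 of 47 had an unadjusted p under 0.05, against 20.2% of all genes. As designed, 0.77% of all genes were called higher and 0.917% lower, so 0 of 47 is near the background. Gar1 and Exosc10 came closest to the threshold. Gar1, a core protein of box H/ACA particles, had 21.6 ± 0.633 RPKM (SD, n = 3) in siEwsr1 cells and 16.0 ± 2.503 RPKM (SD, n = 2) in siCtrl cells, a log2 fold change of 0.47 (limma, adjusted p = 0.104). Exosc10, a nuclear exosome exonuclease that trims snoRNA ends, had 43.1 ± 4.05 RPKM (SD, n = 3) in siEwsr1 cells and 54.3 ± 0.121 RPKM (SD, n = 2) in siCtrl cells, at −0.32 (limma, adjusted p = 0.140). The list medians were 0.12 for the 4 box C/D core proteins, 0.26 for the 4 box H/ACA core proteins and 0.01 for 11 assembly factors. They were 0.12 for 9 Cajal body and nucleolar proteins, 0.06 for 9 trimming and decay factors and −0.05 for 10 ribosomal RNA processing factors. Fibrillarin (Fbl), the box C/D methyltransferase, had 35.2 ± 3.45 RPKM in siEwsr1 cells and 35.3 ± 0.820 RPKM in siCtrl cells. Dyskerin (Dkc1), the box H/ACA pseudouridine synthase, had 53.3 ± 4.27 RPKM in siEwsr1 cells and 46.6 ± 0.420 RPKM in siCtrl cells, at a log2 fold change of 0.21.

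Levels differed widely among members within a class. Mean siCtrl levels ran from 0 to 265 RPKM in the 31 usable box C/D RNAs, from 1.68 to 499 RPKM in the 20 box H/ACA RNAs and from 2.14 to 519 RPKM in the 7 Cajal-body RNAs. Class medians were 13.3 RPKM in siEwsr1 cells and 15.7 RPKM in siCtrl cells for box C/D RNAs. They were 22.8 RPKM in siEwsr1 cells and 18.04 RPKM in siCtrl cells for box H/ACA RNAs, and 106 RPKM in siEwsr1 cells and 87.6 RPKM in siCtrl cells for Cajal-body RNAs. Both Cajal-body medians are the means of Scarna9, whose groups overlapped, so they do not show a higher class level in siEwsr1 cells. Across the 58 usable members, length and mean siCtrl RPKM had a Spearman correlation of 0.15, a description over genes of the same libraries.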

How the data were processed

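RNA from 3 siEwsr1 and 2 siCtrl libraries was analysed, with groups taken from the labels. Per the submitters' processing notes, the authors used STAR 2.5.2b, featureCounts 1.5.1 and edgeR on GRCm38. Neither the annotation release nor the strand setting, the unit or the handling of ambiguous reads is stated there. Values in the deposited files behave as RPKM. Values of 1 or more had lost the decimal point, which was restored so that value, exonic length (GENCODE M21) and library total give whole reads within 1e-06. Of the intact values, 98.5% to 98.6% were whole. Where several readings were whole, the likeliest was kept at odds of at least 20, without use of group labels. The weights of this step were revised after members left out under a first version had been seen. Of 27255 genes above 0, 26642 fitted the M21 length, 575 a solved length and 38 none, and 78 fell under the odds.

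Genes that reached 10 reads, rescaled to the median library, in 2 libraries were tested with limma 3.58.1 (R 4.3.3) on log2(RPKM + 0.1) after TMM scaling, with trended, robust moderation, two-sided and with Benjamini-Hochberg adjustment. Fold changes on this scale understate changes of low genes. Count models planned as alternatives are left out because the deposited values are not counts. Steps were tested on simulated data, where a true 10-fold change was often misread, since it moves the decimal point. A prior on mean log2 reads was tried after the calls of the designed fit had been seen. Members and lists were chosen with earlier results of these data known. Named members are those called, the 6 with the largest fold change and the 4 with the highest level in each class, and members with known roles. Hosts are genes that span a member on the same strand. A single host was kept per member, with protein-coding genes taken first, so Snora73a and Snora73b have Rcc1 and not Snhg3. One read was worth 0.0469 to 0.0665 CPM, and reads are not unique molecules. The result of 1 marker gene is not reported here.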

Additional observations from a re-analysis of the deposited data

How the results depend on the processing

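With the variance prior on the mean log2 reads, chosen after the data had been seen, 367 genes were higher and 399 lower, against 115 and 137 as designed, and 1 member was higher and 1 lower. Log2 reads gave 424 and 438 genes and 1 member lower, and a minimum of 30 reads 202 and 280 genes. With genes above 0 in 2 libraries kept, 0 genes were higher and 3 lower, 0 members were called, Ewsr1 was not called at -0.96, and the Cajal-body median was -0.35. Above 0 in 1 library gave 0 genes either way, 0 members, -0.96 for Ewsr1 without a call and -0.23. Unscaled values gave a host median of 0.022. The lowest decimal position alone gave 53 and 76 genes and a protein list median of 0.11. Scarna10 was then the only Cajal-body RNA tested, so the Cajal-body median of -0.59 is its value alone.

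Replicate numbers did not pair samples (correlation of deviations -0.0677 over 14937 genes). With the replicate block, 217 genes were higher and 227 lower, 1 member was higher (Snord72) and 3 lower (Snora2b, Scarna10 and Snord88c), the host median was 0.014, the protein list median 0.10 and Snora17 reversed to -0.13.

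Leaving out each library gave 0 to 969 higher and 0 to 929 lower genes, 0 to 2 higher and 0 to 5 lower members, and medians of -0.05 to 0.14 for box C/D, 0.18 to 0.39 for box H/ACA and -0.18 to -0.017 for Cajal-body RNAs. Host medians ran from 0.0058 to 0.034, protein list medians from 0.038 to 0.10, Ewsr1 from -0.97 to -0.94 and Snora17 from -0.15 to 0.19. Snora17 reversed without siCtrl replicate 1 (-0.15) or siEwsr1 replicate 3 (-0.13). With either siCtrl library or siEwsr1 replicate 1 left out, 0 genes were called, so Ewsr1 and all members also missed the threshold. Planned count models (edgeR, DESeq2) are not reported, since the deposited values are not counts. The causes were not tested.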
